A study of Mus musculus with 12 samples.

Results

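The ST3 beta-galactoside sialyltransferases are Golgi enzymes that cap the terminal galactose of cell-surface glycans with sialic acid. The genes described here are St3gal1, St3gal2, St3gal4 and St3gal6, taken by name from the 4 deposited tables of genes that differed between groups. They are 4 of the 9338 genes listed in any table and 4 of the 6 genes of the mouse ST3 family. St3gal5, the ganglioside GM3 synthase, was also listed and serves as a comparison, whereas St3gal3 was listed in no table. The study itself picked these 4 genes, in a set of glycan-related genes, from a pathway analysis of genes that changed in both of its first comparisons on these same libraries, so their change there is not independent evidence.

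RNA was sequenced from lung cells captured with CD31 microbeads from 12 male C57Bl/6J mice in 4 groups of 3, with 1 library per mouse. All 12 mice carried TET2 fl/fl alleles and received 40 mg/kg tamoxifen on 3 successive days when 6 to 8 weeks old. TET2 KO mice also carried Cdh5-CreERT2, a tamoxifen-inducible Cre driven by the promoter of the endothelial VE-cadherin gene, and WT mice were Cre-negative littermates. Each genotype was kept on chow (13% of kcal from fat) or given a high-fat diet (HFD, 60% of kcal from fat) for 20 weeks, and lungs were taken at 30 weeks of age. Library totals, recovered from counts and FPKM, lay between 36.7 and 56.8 M reads (median 39.6 M). Tet2 was listed only for HFD against chow in WT mice, at 5.02 ± 0.253 FPKM in WT chow and 6.37 ± 0.319 FPKM in WT HFD (SD, n = 3). It was thus not among the genes listed as different between genotypes on either diet. Without values in the TET2 KO libraries, the labelled genotypes were not checked against it. FPKM is a read count scaled by gene length and library total, which allows levels to be compared between genes of different length.

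The libraries held RNA of other lung cells beside endothelium. In WT chow the 12 listed endothelial markers (Pecam1, Cdh5, Kdr and others) summed to between 283 and 801 FPKM, whereas the club cell secretoglobin Scgb1a1 alone was at 4165, 5481 and 5467 FPKM. No listed marker of any cell type was at 0 in a whole group. In such bulk libraries, fewer cells of a type and less RNA per cell cannot be told apart.

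ST3GAL1 and ST3GAL2 act mainly on the galactose of core 1 O-glycans, and ST3GAL2 also on gangliosides. ST3GAL4 and ST3GAL6 act mainly on lactosamine chains, and the sialic acid they add is part of the sialyl Lewis x epitope that selectins bind during leukocyte rolling. TET2 oxidises methylated cytosine, mostly where a C is followed by a G, and CpG content is therefore a property of interest for promoters in a TET2 KO. No methylation was measured in these libraries.

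RefSeq promoter windows on GRCm38.p6 were found for 2 of the 4 genes, and the bases upstream of the annotated starts are shown to contrast their CpG content, with every CpG in capitals. The St3gal4 stretch, chr9:35116874-35117114 on the minus strand, lies before an annotated start of St3gal4 and inside an exon of 4930581F22Rik, annotated on the opposite strand. The St3gal6 stretch, chr16:58524254-58524503 on the minus strand, lies before the most upstream annotated start of St3gal6 and overlaps no annotated exon.
St3gal4: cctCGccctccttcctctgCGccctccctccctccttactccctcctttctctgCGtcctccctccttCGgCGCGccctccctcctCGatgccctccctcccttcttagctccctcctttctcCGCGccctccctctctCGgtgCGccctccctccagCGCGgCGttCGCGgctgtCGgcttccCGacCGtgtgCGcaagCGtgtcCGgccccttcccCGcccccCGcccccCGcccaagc
St3gal6: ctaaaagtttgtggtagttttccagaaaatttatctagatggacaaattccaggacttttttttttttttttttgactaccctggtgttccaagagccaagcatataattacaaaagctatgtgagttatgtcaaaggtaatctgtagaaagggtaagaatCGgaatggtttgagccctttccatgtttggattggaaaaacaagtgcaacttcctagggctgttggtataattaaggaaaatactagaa

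The 250 bases before the RefSeq start of St3gal4 held 25 CpGs at 72.8% GC, and 10.7% of 32851 mouse promoter windows had at least as many. The same stretch of St3gal6 held 1 CpG at 34.8% GC, a number reached or passed by 92.1% of windows, against a median of 6 CpGs. St3gal6 has a second RefSeq start further downstream, at whose 250 upstream bases there were 16 CpGs, and 25.4% of windows had at least as many. Of the 15 annotated transcripts of St3gal6, 3 start in this downstream window and 1 in the CpG-poor window shown, while 1 of the 9 transcripts of St3gal4 starts in its window. The GC box GGGCGG, searched on both strands, occurred 3 times before the St3gal4 start, not at all before the upstream St3gal6 start and 4 times before the downstream one, and 32.7% of all windows held it. The interferon-related motifs GAS (TTCNNNGAA, in 7.02% of windows) and the ISRE core (GAAA, any pair of bases, GAAA, in 2.98%) were not matched in any of these windows, which says only that these letters were not there. The same held for the E-box CACGTG, in 6.02% of windows, and the TATA box TATAAA, in 12.4%.

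The 4 genes lie on different chromosomes of mm10, St3gal1 on chromosome 15 (67102875 to 67176830, minus strand), St3gal2 on chromosome 8 (110919922 to 110972480, plus strand), St3gal4 on chromosome 9 (35046576 to 35119268, minus strand) and St3gal6 on chromosome 16 (58468125 to 58524243, minus strand). No pair of them shared a transcript stretch of 20 bases or more in GENCODE M21. However, 412 of the 2923 exonic bases of St3gal4 overlap exons of 4930581F22Rik, and 1603 of the 6172 exonic bases of St3gal6 overlap exons of Dcbld2, each on the opposite strand. Whether counting used the strand is not stated, so reads from these stretches cannot be assigned with certainty, and neither partner gene was listed in any table.

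Among the 4, St3gal1 was the most abundant transcript per length and St3gal4 the next. In WT chow, the mean level was 24.6 ± 3.81 FPKM for St3gal1, 11.5 ± 1.24 for St3gal4, 4.89 ± 1.15 for St3gal2 and 4.38 ± 1.02 for St3gal6 (SD, n = 3). St3gal1 exceeded St3gal4 in 9 of 9 libraries that had both values, by 1.16 to 2.63 times, and St3gal4 exceeded St3gal2 in 12 of 12, by 1.45 to 3.35 times. St3gal2 was above St3gal6 in 11 of 12 libraries, with a ratio that spanned 0.976 to 1.52. Their group means lay within 1 SD of each other in WT chow, but that SD is between mice, while both genes were measured in each library. The order of these neighbours was mostly kept within a library and was not tested. Behind these levels stood 5278 to 16423 reads per library for St3gal1 and 724 to 3609 for the other 3 genes, so the spread between mice and not counting error limited the comparisons.

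The first comparison asked how loss of endothelial TET2 alters transcripts on chow. St3gal1 was at 24.4, 21.0 and 28.6 FPKM in the 3 WT chow libraries and at 41.9, 32.3 and 32.8 FPKM in the 3 TET2 KO chow libraries. Every TET2 KO library was above every WT library, and St3gal1 rose by 0.53 on the log2 scale (SE 0.18, adjusted p = 0.832 by edgeR's quasi-likelihood test), passing the unadjusted threshold of 0.05 used for calls throughout. St3gal4, the type 2 chain enzyme, was at 10.3, 11.5 and 12.8 FPKM in WT chow and 15.9, 14.2 and 15.5 FPKM in TET2 KO chow. Its groups did not overlap either, and it rose by 0.40 (SE 0.14, 95% interval 0.08 to 0.72).

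St3gal6, which shares acceptors with St3gal4, was at 3.89, 3.70 and 5.55 FPKM in WT chow and 7.07, 5.82 and 5.99 FPKM in TET2 KO chow. The lowest TET2 KO library was just above the highest WT library, and the rise was 0.52 (SE 0.19, 95% interval 0.07 to 0.97). St3gal2, which shares acceptors with St3gal1, was at 4.62, 3.91 and 6.16 FPKM in WT chow and 10.4, 5.68 and 6.07 FPKM in TET2 KO chow. Here 1 TET2 KO library was far above the others and the remaining pair lay inside the WT range. The St3gal2 difference of 0.59 (SE 0.28, 95% interval -0.06 to 1.25) missed the threshold.

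Thus 3 of the 4 genes were called higher in TET2 KO on chow at an unadjusted p under 0.05, where 30.6% of the 1298 listed genes were called higher and 30.7% lay higher with no overlap of FPKM. A gene entered that table only by passing the authors' own test at the same threshold, so these shares are conditional on listing. The median log2 difference was 0.53 over the 4 genes and -0.37 over all listed genes. None of the 4 held after Benjamini-Hochberg adjustment over 18463 genes (edgeR, adjusted p from 0.832 to 1), nor did any other listed gene by edgeR, whereas 12 listed genes did by DESeq2 and 994 had an unadjusted p under 0.05 by edgeR. The number of genes called depended on single libraries, being 0 without WT chow replicate 1 or 2, 1 without TET2 KO chow replicate 1, and 4 without WT chow replicate 3 or TET2 KO chow replicate 2.

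The level of all 4 genes followed the library within the chow groups. In WT chow, replicate 3 had the highest value of each gene, and in TET2 KO chow, replicate 1 had the highest and replicate 2 the lowest value of each. The sialomucin Podxl, an endothelial selectin ligand, was also highest in these same libraries, at 20.1, 20.8 and 38.5 FPKM in WT chow and 80.7, 37.4 and 30.5 FPKM in TET2 KO chow. Of the 12 endothelial markers none was in this table, and Emcn, the only 1 with values in all 12 libraries, was at 2.14 to 2.67 FPKM in WT chow and 1.96 to 2.67 FPKM in TET2 KO chow. Emcn did not follow the sum of the 12 markers closely. In WT chow libraries 1, 2 and 3 that sum was 332, 283 and 801 FPKM, against 2.14, 2.32 and 2.67 FPKM for Emcn. The other endothelial markers had no values in TET2 KO chow, so endothelial content was not compared between the chow groups. Of 12 T cell markers, 7 were listed and 6 rose, with sums of 95.5 to 157 FPKM in WT chow and 166 to 221 FPKM in TET2 KO chow, and both listed NK cell markers of 8 rose. The 1 listed monocyte and macrophage marker of 8 rose, whereas 3 of 12 lung epithelial markers and 4 of 8 fibroblast and smooth muscle markers were listed and fell. The part of these shifts in the differences of the 4 genes was not tested.

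**Figure D1:**
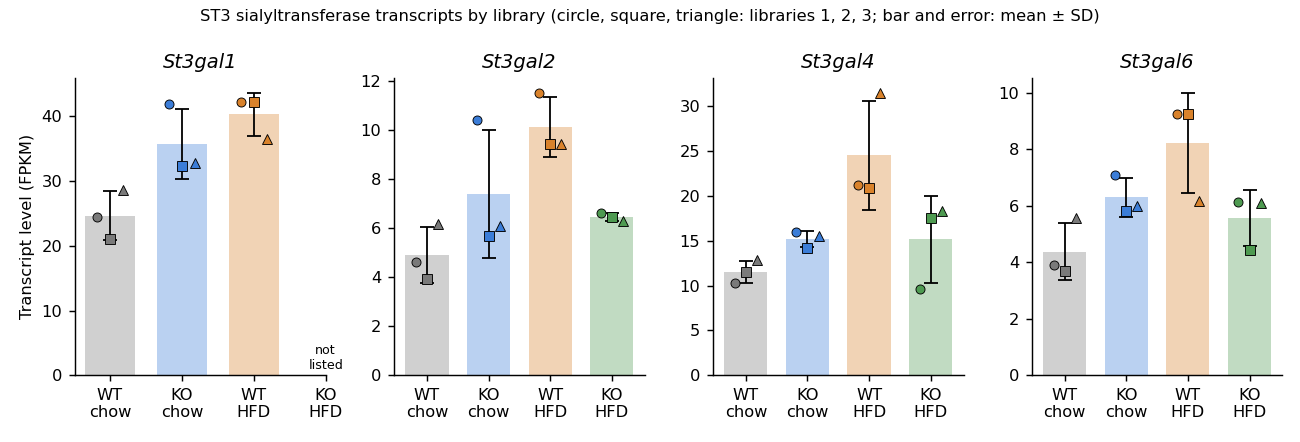
Transcript level in FPKM (y axis) of each of the 4 genes in the 4 groups (x axis), with circles, squares and triangles for libraries 1, 2 and 3 of a group, bars for the mean and error bars for the SD. WT HFD libraries lie above all WT chow libraries for every gene, and the St3gal4 value of 31.5 FPKM in WT HFD library 3 stands apart from 21.2 and 20.8 FPKM in the other two.

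The next comparison asked what HFD, used as a model of type 2 diabetes, does in WT mice, and it shares the WT chow libraries with the first. St3gal4 was at 21.2, 20.8 and 31.5 FPKM in WT HFD against the 10.3 to 12.8 FPKM of WT chow. Its lowest HFD library was well above its highest chow library, a rise of 1.09 on the log2 scale (SE 0.19, 2.13-fold). St3gal2 was at 11.5, 9.40 and 9.40 FPKM in WT HFD, all above the 6.16 FPKM of the highest chow library. It rose by 1.05 (SE 0.19, 2.07-fold).

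St3gal6 was at 9.26, 9.24 and 6.17 FPKM in WT HFD, where replicate 3 came close to the highest chow value of 5.55 FPKM. The groups still did not overlap, and St3gal6 rose by 0.91 (SE 0.22, 1.88-fold). St3gal1 was at 42.2, 42.2 and 36.4 FPKM in WT HFD, clear of the 28.6 FPKM of the highest chow library. Its rise of 0.71 (SE 0.15, 1.64-fold) was the smallest of the 4.

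All 4 genes were therefore called higher on HFD in WT mice, where 42.4% of the 7330 listed genes were called higher and 39.7% lay higher with no overlap of FPKM. Listing required the authors' own test at the same threshold, and 6712 of the 7330 genes were called in either direction by edgeR. The study also picked the 4 genes for a change in this comparison, so their calls are not independent evidence. The median difference was 0.98 over the 4 genes and -0.325 over all listed genes. After Benjamini-Hochberg adjustment over 23768 genes, St3gal4, St3gal2 and St3gal1 had adjusted p of 0.0368, 0.0371 and 0.0439 by edgeR, and St3gal6 had 0.0583, where 8.39% of listed genes held and were higher. These adjusted values were fragile, since over 12 alternatives they ran from 6.51e-05 to 0.143 for St3gal4, 0.000122 to 0.143 for St3gal2, 0.000717 to 0.15 for St3gal1 and 0.00593 to 0.18 for St3gal6. The unadjusted calls of all 4 genes held whichever library was left out.

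Endothelial markers moved in the same direction as the 4 genes on HFD. All 12 were listed and 11 rose, with a median difference of 1.30, and their summed level was 332, 283 and 801 FPKM in WT chow and 1463, 1205 and 820 FPKM in WT HFD. Replicate 3 of each group thus had nearly the same summed level. Between these single libraries, St3gal1 was at 28.6 and 36.4 FPKM, St3gal2 at 6.16 and 9.40 FPKM, St3gal4 at 12.8 and 31.5 FPKM and St3gal6 at 5.55 and 6.17 FPKM, in WT chow and WT HFD respectively. That pair was chosen after its values were seen, and 1 library against 1 allows no test. All 8 NK cell markers also rose, their sum running from 33.7 to 59.9 FPKM in WT chow and from 104 to 172 FPKM in WT HFD, and the 3 listed T cell markers of 12 rose. Of the other lists, 4 of 8 monocyte and macrophage markers were listed (2 higher, 2 lower), as were 1 of 7 neutrophil markers (lower), 6 of 12 lung epithelial markers (2 higher, 2 lower) and 3 of 8 fibroblast and smooth muscle markers (1 higher, 1 lower). The part of these markers in the differences of the 4 genes was not tested further.

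**Figure D2:**
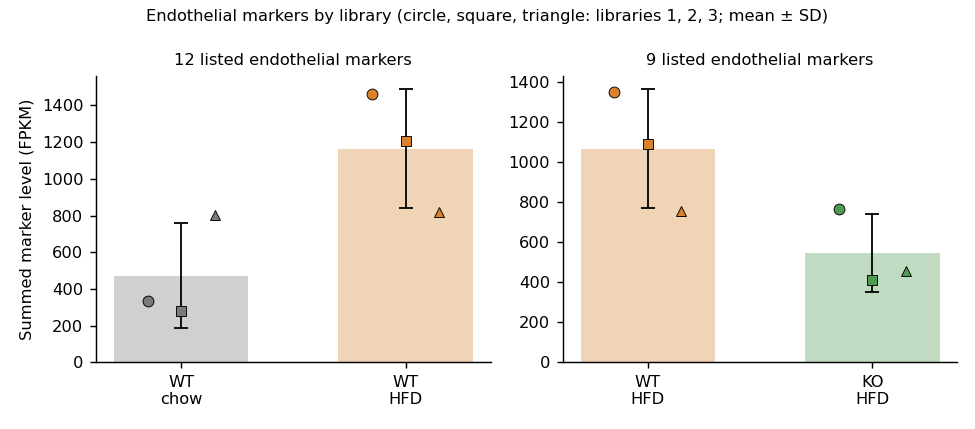
Summed FPKM (y axis) of the endothelial markers listed for HFD against chow in WT (left, 12 markers) and for TET2 KO against WT on HFD (right, 9 markers), by group (x axis), with symbols for libraries 1, 2 and 3, bars for the mean and error bars for the SD. WT HFD sums of 820 to 1463 FPKM lie above WT chow sums of 283 to 801 FPKM, and TET2 KO HFD library 1, at 768 FPKM, lies just above WT HFD library 3, at 759 FPKM.

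The combined level of the 4 genes was 45.5 ± 6.79 FPKM in WT chow, 64.6 ± 9.36 FPKM in TET2 KO chow and 83.1 ± 1.27 FPKM in WT HFD (SD, n = 3). St3gal1 made up 54.2% ± 2.07 of it in WT chow, 55.2% ± 0.804 in TET2 KO chow and 48.5% ± 4.27 in WT HFD. St3gal4 made up 25.6% ± 2.7 in WT chow and 29.5% ± 7.14 in WT HFD, a share whose spread came from replicate 3. In that library St3gal1 and St3gal6 had their lowest and St3gal4 its highest WT HFD level, so the sum was nearly equal in the 3 mice while its make-up was not. St3gal5 was also highest there, at 25.0 FPKM against 6.15 and 8.06 FPKM in the other WT HFD libraries.

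**Figure D3:**
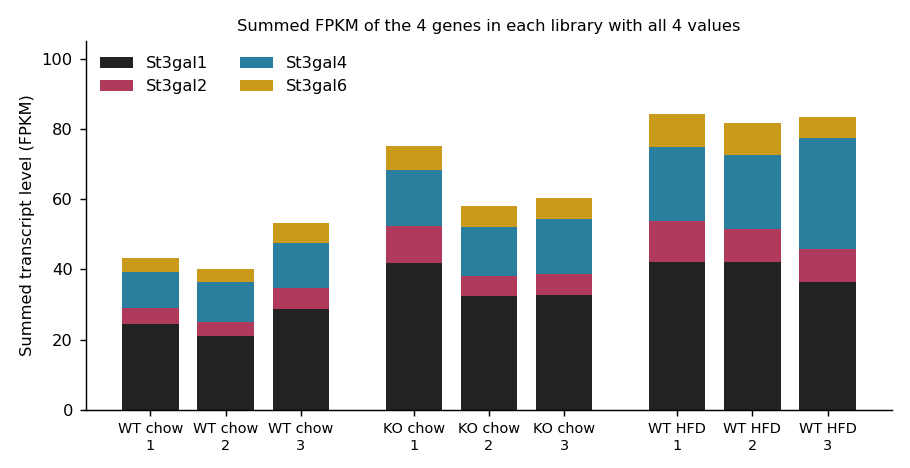
Summed FPKM of the 4 genes (y axis) in each WT chow, TET2 KO chow and WT HFD library (x axis), stacked by gene. The sums rise from 45.5 FPKM on average in WT chow to 64.6 FPKM in TET2 KO chow and 83.1 FPKM in WT HFD, and St3gal1 is the largest part of every bar.

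Levels in WT HFD and TET2 KO chow, which are separated by both genotype and diet, were compared in a fit of 9 libraries over the 1407 genes with counts in all of them. St3gal4 was higher in WT HFD than in TET2 KO chow by 0.69 (SE 0.19, adjusted p = 0.0472 by edgeR), and its lowest WT HFD value of 20.8 FPKM was above its highest TET2 KO chow value of 15.9 FPKM. In that comparison 13.4% of genes were called higher, and 5.47% also after adjustment. How many of the 1407 genes lacked overlap there was not computed, so nothing is drawn from overlap in this comparison. The 1407 genes had all been listed for some difference, which makes the adjustment lenient, and the adjusted p of St3gal4 rose to between 0.0512 and 0.166 when any 1 of the 9 libraries was left out and to 0.0509 with limma-trend, although its unadjusted call held in each case. The differences of the other 3 genes missed the threshold and their groups overlapped, at 0.18 for St3gal1 (95% interval -0.23 to 0.58), 0.45 for St3gal2 (-0.13 to 1.04) and 0.39 for St3gal6 (-0.10 to 0.88). These intervals are compatible with no difference and with rises of up to 0.58, 1.04 and 0.88. Without TET2 KO chow replicate 1 the St3gal2 difference was 0.78, and without WT HFD replicate 3 the St3gal6 difference was 0.56, and each was then called.

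For the 3 genes with values in all groups, the order of the genotype means on HFD was the opposite of that on chow. The chow difference of St3gal2 had missed the threshold. St3gal2 was at 6.60, 6.44 and 6.30 FPKM in TET2 KO HFD, all below the 9.40 to 11.5 FPKM of WT HFD, and fell by 0.64 (SE 0.14, 95% interval -0.98 to -0.31). St3gal4 was at 9.59, 17.5 and 18.4 FPKM in TET2 KO HFD, where replicate 1 was far below the other two but all 3 were below the lowest WT HFD value. It fell by 0.69 (SE 0.28). St3gal6 was at 6.15, 4.42 and 6.10 FPKM in TET2 KO HFD, the highest of which was barely below the 6.17 FPKM of WT HFD replicate 3, and fell by 0.56 (SE 0.22).

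The 3 listed genes were called lower in TET2 KO on HFD, where 39.1% of the 3939 listed genes were called lower and 36.5% lay lower with no overlap. Listing here also required the authors' own test at the same threshold, so calls and shares are conditional on it. St3gal1 was not listed for this comparison, so its TET2 KO HFD level was not analysed here. None of the 3 held after adjustment over 18703 genes (edgeR with Benjamini-Hochberg adjustment, adjusted p of 0.237 for St3gal2, 0.262 for St3gal6 and 0.274 for St3gal4). By edgeR no listed gene held and 3241 had an unadjusted p under 0.05, while 577 held by DESeq2. St3gal2 was among those 577 (DESeq2 adjusted p = 0.00586) and held under no other alternative. The St3gal4 call was lost without WT HFD replicate 3 (-0.47) or TET2 KO HFD replicate 1 (-0.45). The St3gal6 call was lost without WT HFD replicate 1 or 2 or TET2 KO HFD replicate 2, with values of -0.47, -0.47 and -0.42.

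Endothelial markers again moved with these genes. Of 12, 9 were listed and 7 fell in TET2 KO HFD, with a median of -0.98 over the listed ones, and their sums were 1351, 1091 and 759 FPKM in WT HFD and 768, 410 and 458 FPKM in TET2 KO HFD. WT HFD replicate 3 and TET2 KO HFD replicate 1 had close sums, and between them St3gal2 was at 9.40 and 6.60 FPKM, St3gal4 at 31.5 and 9.59 FPKM and St3gal6 at 6.17 and 6.15 FPKM. The pair was again chosen after its values were seen. Both listed NK cell markers of 8 missed the threshold, with a median of -0.90, while 1 of 8 monocyte and macrophage markers and 2 of 12 lung epithelial markers were listed and fell. No neutrophil, T cell, B cell or fibroblast and smooth muscle marker was listed there, and no B cell marker in the first pair of comparisons. The part of these markers in the falls was not tested further.

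None of the 4 genes was listed for HFD against chow in TET2 KO mice. For the 3 genes with counts in all 12 libraries the difference was fitted over the 975 genes that had such counts. It was -0.20 for St3gal2 (95% interval -0.74 to 0.35), -0.01 for St3gal4 (-0.56 to 0.54) and -0.18 for St3gal6 (-0.68 to 0.32), and the groups overlapped in each case. None of the 3 was called, where 19.3% of genes were called higher and 33.5% lower. All 3 had already missed the authors' threshold on these same libraries, so the lack of a call is not a separate result. The 975 genes also include some that were listed for this comparison. In the table of this comparison, the listed markers called were 4 of 12 T cell and 3 of 8 monocyte and macrophage markers and 1 of 12 lung epithelial markers, all lower, and 1 of 6 B cell, 2 of 8 fibroblast and smooth muscle and 1 of 12 endothelial markers, all higher. TET2 KO HFD was not separated from WT chow in this fit either, with differences of 0.40 for St3gal2 (-0.15 to 0.94), 0.39 for St3gal4 (-0.16 to 0.95) and 0.34 for St3gal6 (-0.16 to 0.85), where 12.6% of genes were called higher. St3gal2 was higher in each TET2 KO HFD library than in any WT chow library. How many of the 975 genes also lacked overlap in this comparison was not computed, so nothing is drawn from it.

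The difference of the HFD effect between genotypes was tested directly as an interaction term over the 12 libraries. The HFD effect was lower in TET2 KO than in WT mice by 1.24 for St3gal2, a term of -1.24 (SE 0.35), with terms of -1.09 for both St3gal4 (SE 0.36) and St3gal6 (SE 0.33). The adjusted p-values over the 975 genes were 0.0164 for St3gal2, 0.0222 for St3gal4 and 0.0188 for St3gal6 by edgeR with Benjamini-Hochberg adjustment. Genes reached this fit only by being listed for the differences of which the term is built, and 28.6% of all 975 had a called negative term and 27.8% a called positive one, with 28.0% negative and adjusted p under 0.05. The adjusted values thus rest on a set already selected for change. The 3 terms kept their sign and stayed called at the unadjusted threshold under all 17 alternatives, between -1.60 and -0.85. The adjusted p of St3gal4 passed 0.05 without WT chow replicate 1 (0.0534) and without WT HFD replicate 3 (0.0571).

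**Figure D4:**
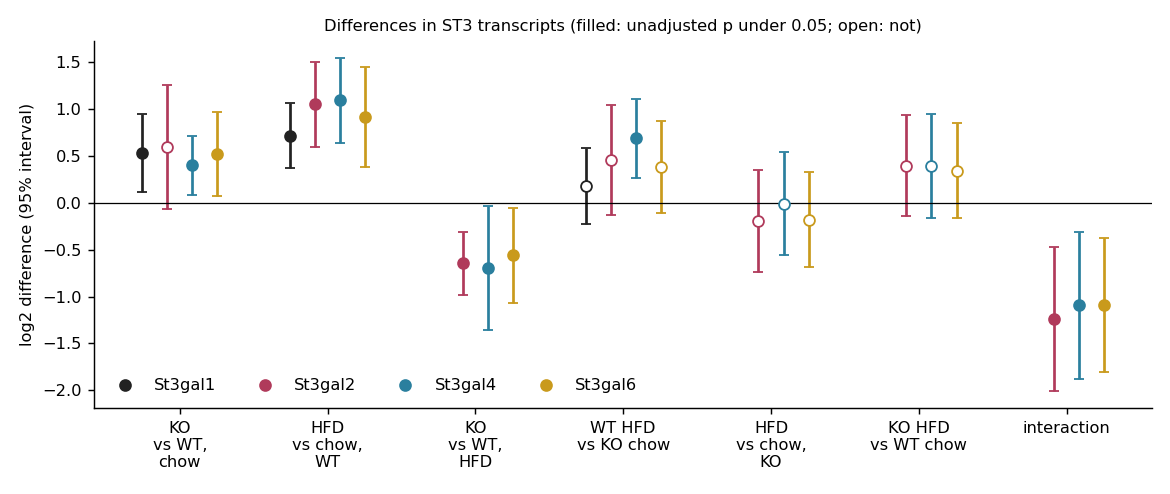
log2 difference (y axis) of each gene in each comparison (x axis), with 95% intervals as bars, filled points for an unadjusted p under 0.05 and open points for the rest. The 3 genes with values in all groups lie above 0 for TET2 KO against WT on chow and below 0 for the same comparison on HFD, and their interaction terms lie between -1.24 and -1.09.

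The other genes of sialic acid metabolism were taken from lists covering its supply, transfer, removal, acceptors and receptors, with 100 genes outside the ST3 family. Of these, the chow comparison of genotypes listed 6 (3 higher, 3 not called), with 31 for HFD in WT (17 higher, 11 lower), 15 for TET2 KO against WT on HFD (2 higher, 10 lower) and 11 for HFD in TET2 KO (2 higher, 7 lower). Over all listed genes the shares called higher and lower were 30.6% and 46.0% in the first of these tables, 42.4% and 49.2% in the next, 43.1% and 39.1% for TET2 KO on HFD and 29.3% and 47.7% for HFD in TET2 KO. St3gal5 rose by 0.46 in TET2 KO on chow (SE 0.17) and by 1.65 on HFD in WT (SE 0.52), the latter with the single high library described above.

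Of the 14 sialyltransferases outside the ST3 family, 5 were listed for HFD in WT and all 5 rose. St6galnac2, which adds sialic acid to the N-acetylgalactosamine of O-glycans, was at 0.914, 1.11 and 1.74 FPKM in WT chow, 3.33, 2.05 and 1.62 FPKM in TET2 KO chow, 3.98, 3.65 and 3.12 FPKM in WT HFD and 2.34, 1.57 and 1.65 FPKM in TET2 KO HFD. It rose by 0.90 in TET2 KO on chow (SE 0.34, groups overlapping) and by 1.52 on HFD in WT (SE 0.26), and fell by 0.95 in TET2 KO on HFD (SE 0.20). St6galnac3 rose by 1.30 on HFD in WT (SE 0.31) and fell by 0.68 in TET2 KO on HFD (SE 0.25). The HFD rises of St6galnac4, St8sia2 and the polysialyltransferase St8sia4 were 0.51, 1.17 and 0.57, although St8sia2 was at 0.262 ± 0.104 FPKM even in WT HFD (SD, n = 3).

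Genes upstream and downstream of transfer moved in both directions. Slc35a1, the Golgi transporter of CMP-sialic acid, was the 1 listed gene of 7 in sialic acid supply and rose by 0.36 on HFD in WT (SE 0.12). The lysosomal sialidase Neu1, the 1 listed of 5 in its list, fell by 0.41 (SE 0.14). Of 34 genes that build acceptors, 9 were listed for HFD in WT, 4 higher and 5 lower, including the galactosyltransferase B4galt4, which rose by 1.75 (SE 0.33). The same list had 2 genes for TET2 KO on chow, of which Galnt7, another enzyme that acts in O-glycan initiation, rose by 0.35 (SE 0.14), 6 for TET2 KO on HFD (2 higher, 3 lower) and 2 for HFD in TET2 KO (1 lower). In TET2 KO on HFD, B4galnt2 rose by 0.72 (SE 0.26) and Galnt6, which starts O-glycans, by 0.48 (SE 0.13).

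Among 12 genes of fucosylation and sulfation, 2 were listed for TET2 KO on chow (1 higher), 4 for HFD in WT (3 higher), 2 for TET2 KO on HFD (both lower) and 3 for HFD in TET2 KO (1 higher, 2 lower). The sulfotransferase Chst2, which the study also picked on these libraries, rose by 0.53 in TET2 KO on chow (SE 0.20). Fut10 fell by 1.20 in TET2 KO on HFD (SE 0.28), and the sulfotransferase Chst4 rose by 1.77 on HFD in TET2 KO (SE 0.70) from 0.0663 to 0.232 FPKM with overlapping groups.

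Of 12 selectins and ligands, the listed ones were Podxl, Cd34 and Emcn, all 3 endothelial sialomucins. Podxl rose by 1.92 on HFD in WT (SE 0.35) and fell by 1.09 in TET2 KO on HFD (SE 0.35), and its difference of 0.91 in TET2 KO on chow missed the threshold. The groups overlapped in the HFD comparison of genotypes. All 3 rose on HFD in WT, Podxl and Cd34 fell in TET2 KO on HFD, and Emcn rose by 0.98 on HFD in TET2 KO (SE 0.32).

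The 16 receptors of sialic acid and binders of desialylated glycans had more members that fell than rose. On HFD in WT 8 were listed, 1 higher and 5 lower, with Siglecf, a receptor of alveolar macrophages and eosinophils in the lung, down by a log2 difference of -1.03 (SE 0.30) and Asgr1 by -2.42 (SE 0.46) from 0.861 to 0.16 FPKM. Lgals9, the exception, rose by 0.73 there (SE 0.16) and fell by 0.47 in TET2 KO on HFD (SE 0.15). On HFD in TET2 KO 5 were listed and 4 fell, among them Cd33 by 0.97 (SE 0.36) and the galectin Lgals1 by 3.45 (SE 0.26), from 41.1 ± 4.15 to 3.76 ± 1.11 FPKM (SD, n = 3). Lgals1 was the 1 gene of that table that held after adjustment (edgeR with Benjamini-Hochberg adjustment over 19511 genes, adjusted p = 0.0219). By DESeq2 70 genes held, and no gene held by edgeR with the replicate block or in 5 of the 6 fits that left out 1 library.

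**Figure D5:**
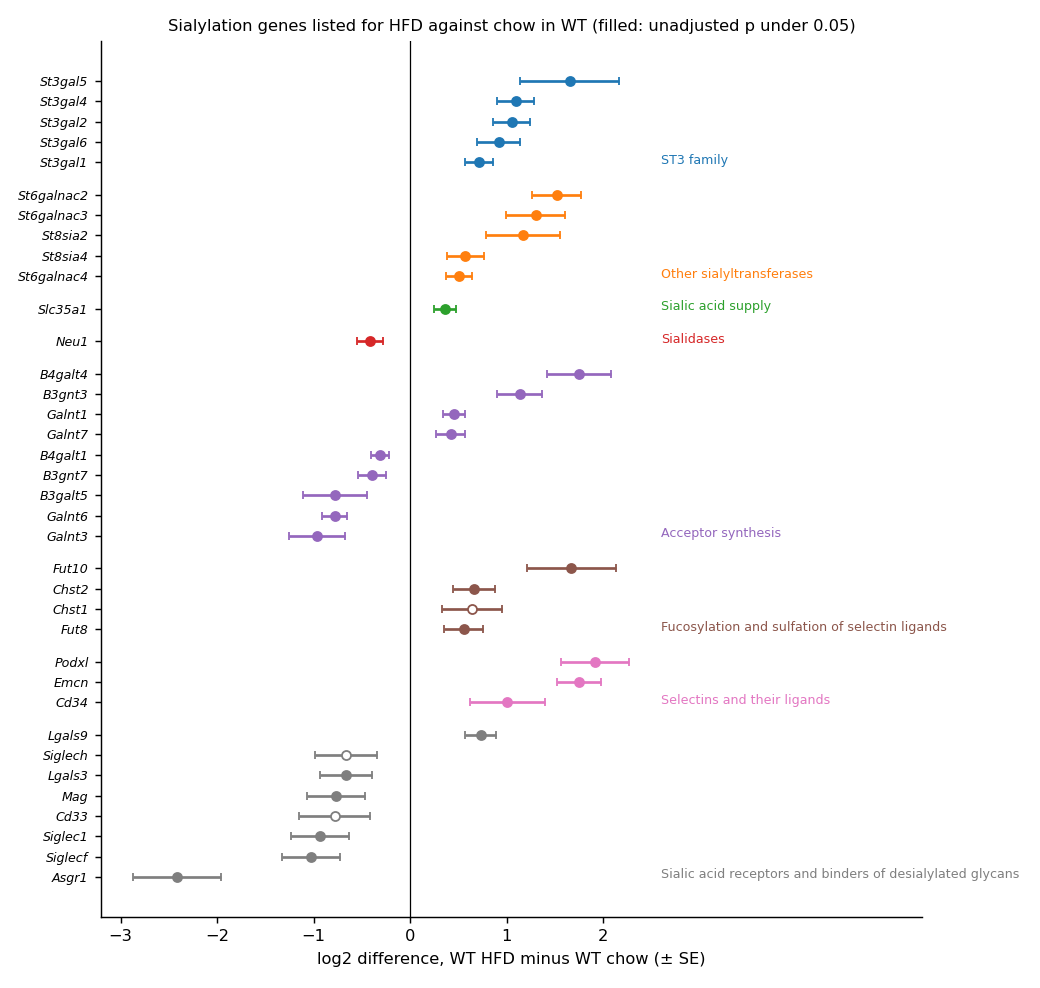
log2 difference between WT HFD and WT chow (x axis, bars are the SE) for each listed gene of the sialic acid lists (y axis, coloured by list), with filled points for an unadjusted p under 0.05. All listed ST3 family genes and other listed sialyltransferases lie above 0, whereas most listed receptors lie below it, down to -2.42 for Asgr1. Genes of these lists that were not listed for this comparison are not shown.

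Likeness to each of the 4 genes was described by Pearson's r of log2(FPKM + 0.1) over the 9 libraries of WT chow, TET2 KO chow and WT HFD, among 828 other genes with a mean of at least 200 reads. These genes share the libraries and were listed because they differed between groups, so the values carry no test. St3gal2 was most like Mmp28, Sox18 and Gata2 (r = 0.985 for each), the last pair being transcription factors of endothelium among other tissues. Sox18 was at 11.4, 11.5 and 19.5 FPKM in WT chow, 71.4, 18.2 and 25.3 FPKM in TET2 KO chow and 96.6, 51.8 and 50.5 FPKM in WT HFD, which repeats the high libraries of St3gal2. St3gal6 was most like Oasl1, Stmn2 and Myct1 (r = 0.965, 0.964 and 0.964), and St3gal1 most like Miga2, Pex6 and Kat2b (r = 0.972, 0.967 and 0.966).

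By this measure St3gal4 was less like the other 3 than they were like each other. Its most alike genes were Gpr141, Tmem51 and Tspo (r = 0.996, 0.982 and 0.979). St3gal1, St3gal2 and St3gal6 had r of 0.907 to 0.953 with each other, whereas St3gal4 had r of 0.739 with St3gal1, 0.794 with St3gal2 and 0.694 with St3gal6. WT HFD replicate 3 had the highest St3gal4 level of the libraries used (31.5 FPKM). It also had the lowest WT HFD levels of St3gal1 (36.4 FPKM) and St3gal6 (6.17 FPKM). Values of r without that library were not computed, so how far the lower r of St3gal4 rests on it was not tested.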

How the data were processed

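CD31+ lung cells of 12 mice were sequenced as poly(A) RNA in paired-end reads. The authors used HISAT2 for alignment to mm10, featureCounts for gene counts and DESeq2 for tests, with versions, annotation and strand setting not given in the sources used here. The authors deposited raw counts, a normalized signal (the count divided by a DESeq2 size factor) and FPKM for each library, in 4 tables that list only genes with an unadjusted p-value under 0.05 in their own test. The deposited fold changes were not used, and the deposited p-value columns served only to find that threshold and the number of genes adjusted over. The deposited gene lengths, in bases, gave the library totals together with counts and FPKM. All per-sample columns were matched to a sample.

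Groups and replicate numbers came from the sample titles. Counts of the listed genes were tested with edgeR 4.0.16 (quasi-likelihood test, R 4.3.3), using the authors' size factors and only the groups compared. Unlisted genes were given the highest possible p in the Benjamini-Hochberg adjustment. Given the p-values of the listed genes, adjusted values of the 4 tables are therefore upper bounds. The spread between mice was estimated from listed genes only, so these values do not bound those of a fit to all genes. WT HFD against TET2 KO chow (9 libraries) and the interaction (12 libraries) used library totals over genes with counts in every library. Their adjustment ran only over the genes fitted, which had been listed because they differed, so those adjusted values are lenient and no bounds. The call threshold was an unadjusted p of 0.05, the one that selected the listed genes. With 3 mice against 3, an exact permutation test of a single gene cannot go below p = 0.1.

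Alternatives were DESeq2 1.42.0, library totals or TMM factors, limma-trend (limma 3.58.1) on log2(FPKM + 0.1) or log2(FPKM + 1), a mean of at least 10 counts, the replicate number as a block, and leaving out each library. The fits were tested on simulated data. The 4 genes, the gene lists and the marker lists were chosen with earlier results of these data known. Named genes were the 4 genes, every other listed sialyltransferase, the called genes of the other sialic acid lists with the 2 largest differences in each direction per comparison, and for each of the 4 genes the 3 with the highest r. Other genes named were chosen after their values were seen. Where a symbol had 2 rows, as St6galnac2 did in 1 table, the row with more reads was used.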

Additional observations from a re-analysis of the deposited data

Results flagged for a closer look

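The 3 genes with values in all groups differed in their HFD effect between genotypes by an interaction test over 12 libraries. The interaction term was -1.24 for St3gal2 (SE 0.35), -1.09 for St3gal4 (SE 0.36) and -1.09 for St3gal6 (SE 0.33), each with an unadjusted p under 0.05 by edgeR. Over all 975 genes 28.6% had a called negative term and 27.8% a called positive one, and genes entered this fit only by being listed for the differences of which the term is built. In WT mice all 3 libraries on HFD were above all 3 on chow for each gene, as they were for 39.7% of the 7330 genes listed there. In TET2 KO mice the HFD and chow libraries overlapped, and the share of genes that did so was not computed. The genes were listed for the WT comparison and not for the TET2 KO one, so nothing further is drawn from these overlaps. St3gal1 could not be tested because it has no values in TET2 KO HFD. With 3 libraries per group, no group was large enough for a test of single outlying libraries.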

How the results depend on the processing

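The 24 fitted differences of the 4 genes were recomputed under 341 combinations of gene, comparison and alternative, 131 of them without leaving out a library. Of those 131, 128 kept their direction and their side of the threshold, 2 became called and 1 reversed. TMM factors made TET2 KO HFD against WT chow called for St3gal2 (0.60) and St3gal4 (0.63), 2 genes in place of 0, and turned HFD against chow in TET2 KO to 0.10 for St3gal4. Leaving out 1 library at a time kept 185 of 210, while 14 lost the call, 7 gained it and 4 reversed, all in comparisons given next.

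For TET2 KO against WT on chow, the differences without 1 library ran from 0.39 to 0.64 for St3gal1, 0.26 to 0.78 for St3gal2, 0.33 to 0.47 for St3gal4 and 0.41 to 0.72 for St3gal6, and the number of genes called from 0 to 4. For TET2 KO against WT on HFD they ran from -0.85 to -0.45 for St3gal4 and from -0.73 to -0.42 for St3gal6. For WT HFD against TET2 KO chow they ran from 0.30 to 0.78 for St3gal2 and from 0.29 to 0.56 for St3gal6, with 1 or 2 genes called. HFD against chow in TET2 KO ran from -0.35 to 0.13 for St3gal2 and from -0.17 to 0.24 for St3gal4. It reversed to 0.13 for St3gal2 without TET2 KO chow replicate 1, and for St3gal4 to 0.03 without TET2 KO chow replicate 1, 0.01 without replicate 3 and 0.24 without TET2 KO HFD replicate 1. TET2 KO HFD against WT chow became called without WT chow replicate 3 (0.60 for St3gal2, 0.55 for St3gal6) or TET2 KO HFD replicate 1 (0.64 for St3gal4), 0 to 2 genes in all. The causes were not tested.

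Same-numbered libraries did not deviate together throughout (r of their deviations from the group means from -0.342 to 0.544), and the main fits did not treat the numbers as pairs. Differently numbered libraries were not compared in this way, so the check cannot decide whether some numbers mark mice handled together. With the replicate block St3gal1, St3gal4 and St3gal6 stayed called in TET2 KO on chow (0.53, 0.40 and 0.54, with 0.56 for St3gal2), the 4 genes stayed called on HFD in WT (0.72, 1.07, 1.07 and 0.92 in the order St3gal1, St3gal2, St3gal4, St3gal6), and no call of the 4 genes changed in any comparison. The adjusted p-values on HFD in WT were then 0.0912 to 0.15. Over all listed genes, adjusted calls on HFD in WT were 1368 with edgeR, 4586 with DESeq2 and 0 with the block.

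The 12-library fit, with its own estimate of spread, gave 0.40 for St3gal4 in TET2 KO on chow without a call, and called St3gal2 (0.59), where 15.5% of genes were called higher.

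The listing also limits these results, since a gene that missed the authors' threshold has no values here.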
